A study of Mus musculus with 8 samples.

Results

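The cells described here are the mitotic transit-amplifying cells of the mouse small intestinal crypt, the dividing progenitors between the stem cells at the crypt base and the mature cells higher up. They are 2681 of the 28750 cell barcodes in the series, and 2681 of the 11525 barcodes that passed the cell filters. A barcode passed with at least 1500 unique molecular identifiers (UMIs, each the count of 1 captured RNA molecule), at least 200 genes, at most 30% of its UMIs from mitochondrially encoded genes and under 20% from the Paneth cell defensins, the Defa genes. A filtered cell was taken as mitotic when Top2a, Ube2c, Cdk1, Ccnb1, Cenpf and Birc5 together gave at least 3 UMIs and at least 0.15% of its UMIs. This left 1901 mitotic cells in the wild-type (WT) matrix and 780 in the knockout (KO) matrix. The cells were thus chosen by measured values, so the levels of the 6 selecting genes, and of genes that go with them in a cell, are given as descriptions.

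The study asked what the loss of ieCtnnb1, an intestinal enhancer upstream of the β-catenin gene Ctnnb1, does to the crypt epithelium. Crypts were released from the small intestine of adult mice with EDTA, EpCAM+ DAPI- cells were sorted, and 3′ droplet libraries were made. KO mice were homozygous for a deletion of ieCtnnb1 made with CRISPR/Cas9. According to the study, the mice labelled WT were not plain wild types: they carried the H11 i.enh reporter. In it the Shh promoter and the core of ieCtnnb1 drive LacZ and iCre from the H11 locus. The sources do not say whether the KO mice carried this reporter too, and they disagree on the number of mice pooled. All mice had a C57BL/6 background, and those sequenced were females by the study's own account. The labels name 4 samples in each group, but the cells of a genotype were pooled, and each group has 1 matrix whose barcodes do not tell the samples apart. Each group therefore counted as 1 sample, genotype and library cannot be told apart, and no test between WT and KO was possible. Intervals are 95% and cover counting error only.

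Transit-amplifying cells descend from Lgr5-expressing stem cells and divide several times while they move up the crypt, before they leave the cell cycle as absorptive or secretory cells. As such a cell nears mitosis, the genes for its mitotic cyclins and kinases, its spindle and kinetochore proteins and the regulators of the anaphase promoting complex are switched on together. Many of their promoters hold CCAAT boxes, which the factor NF-Y binds, and a cell cycle homology region (CHR, TTTGAA or TTCGAA), which the MuvB core reads together with B-MYB and FOXM1.

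The promoters of the 6 selecting genes and of Mki67, the gene of the proliferation marker Ki-67, are shown because these genes carry the comparisons that follow. The sequences come from RefSeq (build GRCm38.p6) and run 5′ to 3′ on the strand of the gene. They are the 200 bases nearest the start that no GENCODE M21 exon covers, except for Ccnb1, where 166 bases of this kind were at hand. Capitals mark CCAAT boxes and the letters TTTGAA or TTCGAA on either strand. Read on the opposite strand, CCAAT becomes ATTGG while TTTGAA becomes TTCAAA.
Top2a: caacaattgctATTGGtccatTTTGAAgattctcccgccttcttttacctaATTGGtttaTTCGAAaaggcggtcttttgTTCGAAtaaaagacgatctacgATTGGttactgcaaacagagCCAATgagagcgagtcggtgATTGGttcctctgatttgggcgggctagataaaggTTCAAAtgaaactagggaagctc
Ube2c: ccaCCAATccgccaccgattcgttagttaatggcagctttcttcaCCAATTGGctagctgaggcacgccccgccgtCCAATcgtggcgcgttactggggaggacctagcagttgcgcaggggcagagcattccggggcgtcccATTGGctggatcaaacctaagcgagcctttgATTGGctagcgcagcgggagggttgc
Cdk1: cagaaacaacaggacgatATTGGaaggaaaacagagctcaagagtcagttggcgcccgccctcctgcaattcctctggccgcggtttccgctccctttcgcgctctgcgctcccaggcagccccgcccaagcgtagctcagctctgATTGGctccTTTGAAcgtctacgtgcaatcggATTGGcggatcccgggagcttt
Ccnb1: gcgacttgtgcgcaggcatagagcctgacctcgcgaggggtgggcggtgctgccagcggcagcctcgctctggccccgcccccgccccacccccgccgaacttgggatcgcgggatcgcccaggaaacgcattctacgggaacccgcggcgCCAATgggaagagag
Cenpf: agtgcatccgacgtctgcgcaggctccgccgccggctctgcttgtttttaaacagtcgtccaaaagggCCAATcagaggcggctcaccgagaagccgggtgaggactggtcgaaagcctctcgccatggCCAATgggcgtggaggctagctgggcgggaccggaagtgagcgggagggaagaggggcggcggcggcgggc
Birc5: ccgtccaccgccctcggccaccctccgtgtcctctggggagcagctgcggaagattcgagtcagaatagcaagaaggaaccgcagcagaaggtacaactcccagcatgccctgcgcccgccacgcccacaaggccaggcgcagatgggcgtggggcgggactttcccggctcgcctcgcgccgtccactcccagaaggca
Mki67: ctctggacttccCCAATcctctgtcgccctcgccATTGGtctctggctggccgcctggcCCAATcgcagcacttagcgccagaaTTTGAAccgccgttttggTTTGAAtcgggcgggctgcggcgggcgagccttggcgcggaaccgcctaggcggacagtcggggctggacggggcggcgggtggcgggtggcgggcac

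The printed stretches lie at chr11:99024190-99024389 (minus strand) for Top2a, chr2:164769698-164769897 (plus) for Ube2c, chr10:69352939-69353138 (minus) for Cdk1, chr13:100786571-100786736 (minus) for Ccnb1, chr1:189688087-189688286 (minus) for Cenpf, chr11:117849037-117849236 (plus) for Birc5 and chr7:135716380-135716579 (minus) for Mki67. In the full window of 300 bases, from 250 before the start to 50 after it, Top2a held 6 CCAAT boxes, 2 TTTGAA and 2 TTCGAA. Ube2c held 6 CCAAT boxes, of which a pair overlap as ccaattgg, and 1 TTTGAA 29 bases before the start. Cdk1 had 3 CCAAT boxes and 2 TTTGAA, Ccnb1 had 2 CCAAT boxes and no TTTGAA or TTCGAA, and Cenpf had 2 CCAAT boxes and 1 TTTGAA starting at base 3 after the start. None of these letters was found in the Birc5 window. Mki67 held 3 CCAAT boxes and 2 TTTGAA. These 7 genes lie on 6 chromosomes.

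The same letters were counted for a list of 96 mitotic genes that leaves out the 6 selecting genes. Of these, 79 matched the promoters used, which leave out chr18. CCAAT was present in 58 of these 79 windows (73.4%), against 37.4% of all 32851 windows. TTTGAA or TTCGAA was present in 54 (68.4%), against 19.2% of all windows, and both kinds in 45 (57.0%), against 7.52%. Taken at 1 promoter a gene over the genes measured in mitotic cells, the shares were 39.3%, 14.0% and 6.04%. The kinesins, spindle and cytokinesis genes had the highest share with TTTGAA or TTCGAA among the mitotic groups, 19 of 23 (82.6%), and the anaphase promoting complex and checkpoint genes the lowest, 5 of 13 (38.5%). DNA replication genes, which are made earlier in the cycle, held CCAAT in 17 of 28 windows (60.7%) but TTTGAA or TTCGAA in 5 of 28 (17.9%). A match of this kind is a string of letters and no evidence of binding.

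The promoter letters were set beside the readout that the cells give. Among measured genes, those with at least 50 UMIs in the mitotic cells of both matrices together, 491 had both kinds of motif, the selecting genes aside, and 61 of them (12.4%) were at least 2-fold higher in mitotic than in other filtered WT cells. This share was 3.07% for 652 genes with TTTGAA or TTCGAA alone, 0.697% for 2727 genes with CCAAT alone and 0.509% for 4321 genes with neither. In KO the shares were 8.35%, 1.38%, 0.293% and 0.301%. The cells were chosen by 6 genes, 4 of which hold both kinds, and 39 of the 61 are on the mitotic list. This is therefore a description and no test. The median log2 ratio of KO to WT within mitotic cells, by contrast, lay between -0.39 and -0.33 in all 4 classes, with little between them. Within the mitotic list, 44 measured genes with both kinds had a median of -0.64, 7 with TTTGAA or TTCGAA alone -0.95, 12 with CCAAT alone -0.39 and 12 with neither -0.44.

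The libraries were deep but differed between the groups. The WT matrix held 15987 barcodes and 134876816 UMIs, and the KO matrix 12763 barcodes and 123794575 UMIs. The filters left 6847 and 4678 cells, and the limit on Defa UMIs alone removed 3741 and 1203. The median depth of mitotic cells was 8488 UMIs (2787 genes) in WT and 18513.5 UMIs (3761.5 genes) in KO, a 2.18-fold difference in depth. Other filtered cells had 5869 and 11451 UMIs. Free RNA was present: each of the 1901 and 780 mitotic cells still had at least 3 UMIs of Paneth markers after all cells were thinned at random to 1500 UMIs, and so did each enterocyte. Markers of leukocytes gave 12 UMIs in all WT and 2 in all KO mitotic cells, with 4 and 8 of 9 markers at 0, and those of fibroblasts, endothelium and red cells gave 4 and 3, with 7 and 6 of 8 at 0. The matrices shared 57 barcodes, of which 2 were mitotic in WT and 2 in KO, none in both.

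Mitotic cells made up 27.8% of filtered WT cells (26.7 to 28.8) and 16.7% of filtered KO cells (15.6 to 17.8), a log2 ratio of KO to WT of -0.74. With each cell thinned to 1500 UMIs before the rule was applied, the shares were 23.1% and 14.5%. These shares depended on which of the 6 genes did the selecting. A rule of Top2a and Cenpf alone, at 0.10% of UMIs, found 1275 WT cells (18.6%) but 108 KO cells (2.31%, 1.90 to 2.78), a log2 ratio of -3.01. The same rule with Ube2c and Birc5 found 906 WT cells (13.2%, 12.4 to 14.1) and 606 KO cells (12.95%, 12.005 to 13.95), a log2 ratio of -0.031. Both of these rules were chosen after the data were seen. At a stricter limit of 0.30% for all 6 genes the shares were 9.03% and 2.09%, and at 0.10% they were 34.5% and 24.9%. Whether KO crypts held fewer mitotic cells thus could not be read from 1 rule, and with 1 library a group it could not be tested.

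**Figure D1:**
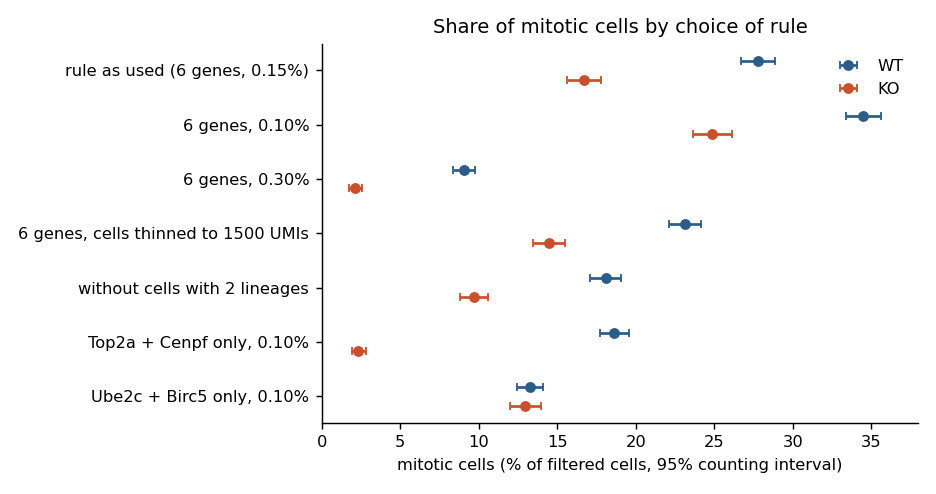
Percent of filtered cells called mitotic (x axis) in WT and KO under the main rule and under rules built from other genes, limits or depths, with exact 95% binomial intervals for counting error. The KO point lies far below WT for Top2a with Cenpf (2.31% against 18.6%) and beside it for Ube2c with Birc5 (12.95% against 13.2%). The row without cells with 2 lineages leaves out mitotic cells rich in markers of any other lineage.

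The limits of the rule cut through a continuum. The 6 genes gave a median of 0.251% of UMIs in WT mitotic cells and 0.214% in KO, with highest values of 0.751% and 0.542%. The median number of selecting UMIs was 23 in WT and 40 in KO, and 26 WT and 8 KO cells had exactly 3. Just inside the limit lay 106 WT cells with a median of 14 such UMIs, and just outside it 106 with 13. In KO, 70 cells lay just inside with 28 and 78 just outside with 27. All 6 genes were found in 47.6% of WT and 68.1% of KO mitotic cells, at unequal depth. No selecting UMI at all was seen in 33.7% of filtered WT and 26.7% of filtered KO cells.

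The selecting genes differed in direction between the matrices. Levels are given as CPM (a gene's share of all UMIs of the mitotic cells of a matrix, scaled so that all genes sum to 1000000), and as log2 ratios of KO to WT. Top2a, the topoisomerase that untangles sister chromatids (ENSMUSG00000020914, chr11:98992943-99024189 in GRCm38), had 831 CPM in WT and 373 in KO (log2 ratio -1.16, -1.20 to -1.11). Cenpf, a large kinetochore and nuclear matrix protein, had 440 and 241 CPM (-0.87, -0.93 to -0.81). Ube2c, the ubiquitin-conjugating enzyme of the anaphase promoting complex (chr2:164769898-164778822), had 627 CPM in WT and 839 in KO (0.42, 0.38 to 0.46). Birc5, survivin of the chromosomal passenger complex, had 398 and 479 CPM (0.26, 0.22 to 0.31). Cdk1, the kinase that drives entry into mitosis, had 167 and 156 (-0.10, -0.18 to -0.02), and its partner cyclin B1, Ccnb1, 164 and 128 (-0.36, -0.45 to -0.28). In the other filtered cells the log2 ratios of all 6 were higher, from -0.51 for Top2a to 0.84 for Ube2c. Since these genes chose the cells, their ratios describe the selection and are no finding.

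The selecting UMIs were therefore made up differently. Top2a gave 31.6% of them in WT and 16.8% in KO, and Ube2c 23.9% and 37.9%. Top2a alone had the most UMIs of the 6 in 959 WT cells (50.4%) and in 83 KO cells (10.6%), while Ube2c alone led in 449 (23.6%) and 545 (69.9%). A gene led by its raw UMIs, with no correction for length.

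Over all filtered cells, with no choice of mitotic cells and each cell thinned to 1500 UMIs, the genes differed as well. Top2a was detected in 28.3% of WT (27.3 to 29.4) and 15.4% of KO cells (14.4 to 16.5), Cenpf in 16.9% and 8.94%, Cdk1 in 8.16% and 6.11%, Ccnb1 in 7.90% and 4.83%, and Mki67, which the rule did not use, in 28.1% (27.0 to 29.2) and 9.68% (8.85 to 10.6). The spindle genes Prc1, which bundles the central spindle, and Nusap1, a microtubule binder of the spindle, were detected in 11.2% and 8.91% of WT cells and in 4.75% and 3.89% of KO cells. Also detected less often in KO were Plk1 (5.80% and 3.21%), Cdc20 (7.96% and 5.92%), Ccna2 (8.65% and 6.16%), Aurka (4.15% and 2.95%), Cenpa (12.1% and 9.88%) and Hmgb2 (46.7% and 42.3%), while the intervals of Ccnb2 (9.43%, 8.75 to 10.2, and 8.44%, 7.66 to 9.28) overlapped. Ube2c, by contrast, was found in 21.7% (20.7 to 22.7) and 21.5% (20.3 to 22.7), Birc5 in 17.6% and 17.9%, and Cks2, a small subunit of Cdk1, in 14.3% and 14.96%. Stmn1, the microtubule destabiliser stathmin, was found in 32.3% of WT and 41.2% of KO cells, and the histone variant gene H2afz in 59.97% and 67.7%. Enterocytes, set by Apoa1, Apoa4, Fabp2, Alpi and Sis, should lack mitotic RNA. Their shares of Top2a were 2.27% and 1.71%, of Mki67 2.098% and 1.14%, of Prc1 1.22% and 0.912% and of Ube2c 2.62% and 4.22%, all far under the shares in all filtered cells. Stmn1 (5.24% and 9.01%) and H2afz (23.3% and 32.8%) were also found more often in KO enterocytes. Tuft cells (85 in WT, 39 in KO), which should lack such RNA too, had more of it. Their shares of Top2a were 21.2% (13.1 to 31.4) and 15.4% (5.86 to 30.5), intervals that hold those of all filtered cells. Mki67 and Ube2c were each found in 12.9% and 7.69% of tuft cells, so the background depended on the cells taken. Unthinned, at median depths of 6584 and 12559 UMIs, Top2a was detected in 49.5% of WT and 47.8% of KO filtered cells, Mki67 in 51.0% and 43.1% and Ube2c in 44.5% and 53.5%.

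**Figure D2:**
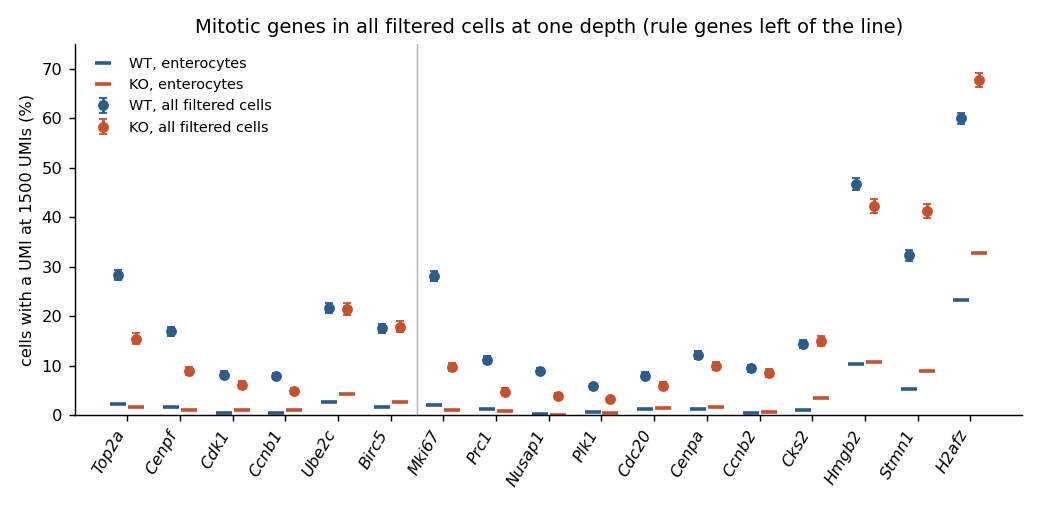
Percent of all filtered cells with a UMI of each gene after thinning every cell to 1500 UMIs, for WT and KO (points, y axis), with exact 95% binomial intervals for counting error. Bars give the same for enterocytes, with tuft cells not drawn, and the selecting genes stand left of the line. Mki67, Top2a, Cenpf, Prc1 and Nusap1 are detected less often in KO, and Ube2c and Birc5 at 21.7% against 21.5% and 17.6% against 17.9%.

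The cells bore the label mitotic by genes the rule did not use. Ratios of mitotic to other filtered cells carry 10 CPM added to both sides. Of 92 measured mitotic genes outside the rule, 76 were at least 2-fold higher in mitotic than in other filtered cells of WT and 64 in KO, where 1.72% and 0.995% of all 10657 measured genes were this much higher. Every one of the 92 was higher to some degree in both matrices, with a median log2 ratio of 1.62 in WT and 1.18 in KO. The cells were chosen by genes of the same phase, so this is a description and no test. The 20 genes with the highest mean ratio were led by Nusap1 (2.59 in WT, 2.12 in KO) and Prc1 (2.61 and 2.04). They were followed by Cenpe, the kinetochore motor (2.26 and 1.86), Plk1, the polo-like kinase (2.24 and 1.82), and Hmmr, a spindle assembly factor (2.28 and 1.77). Cenpa, the centromeric histone (2.11 and 1.78), H2afx (2.08 and 1.74), Cdc20, the activator of the anaphase promoting complex (1.97 and 1.85), and Mki67 (2.20 and 1.62) also stood in this list. The rest were Aurka, Tpx2, Hist1h2ap, Kif11, Aurkb, Cdca8, Kif20b, Ccna2, Incenp, Casc5 and Spc25, and 19 of the 20 are on the mitotic list.

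Against named kinds of cell the mitotic genes kept their order. Their median log2 ratio of mitotic cells to enterocytes was 2.69 in WT and 1.99 in KO, to tuft cells 1.57 and 1.24, and to non-mitotic stem cells, set by Lgr5, Ascl2, Smoc2, Slc12a2, Axin2 and Rgmb, 1.23 and 1.20. Non-mitotic S-phase cells, set by Pcna, Mcm5, Mcm6, Tyms, Rrm2 and Dut, were nearest, at 0.64 and 0.62, but numbered 32 in WT and 19 in KO. A wider set of replicating cells outside the rule, those with at least 0.2% of UMIs from 35 S-phase genes (658 in WT, 654 in KO), had 1.003 and 0.892. The median log2 ratio of the 35 S-phase genes themselves to these cells was -1.01 (WT) and -0.97 (KO). The choice of the cells by these genes fixes that direction. Stem cell genes were lower in mitotic than in stem cells, by a median of -1.26 and -1.65, which the rule for stem cells sets in part.

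By stage, most of the cells carried late genes and some carried replication genes. After thinning to 1500 UMIs, 73.3% of WT mitotic cells (71.3 to 75.3) and 66.4% of KO mitotic cells (63.0 to 69.7) had a UMI of Cdc20, Plk1, Ccnb2, Cenpa, Cenpe or Aurka. Such a UMI was seen in 29.6% and 18.0% of the replicating cells, 17.1% and 17.5% of other filtered cells and 4.20% and 5.36% of enterocytes. A UMI of Pcna or of Mcm2 to Mcm7, the sliding clamp and the helicase of replication forks, was seen in 32.5% (30.4 to 34.7) and 29.7% (26.6 to 33.1), against 21.1% and 24.6% of other filtered cells, 6.99% and 5.93% of enterocytes and 71.3% and 64.8% of the replicating cells. The limit that set the replicating cells was also passed by 388 WT (20.4%) and 136 KO (17.4%) mitotic cells. Both kinds were found in 22.7% of WT and 19.5% of KO mitotic cells and neither in 16.8% and 23.3%. Of the replicating cells, 21.3% in WT and 9.94% in KO had both kinds.

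Cells led by Top2a and cells led by Ube2c differed in genes outside the rule. Pcna had 62.5 CPM (57.4 to 67.9) in Top2a-led and 25.4 CPM (20.8 to 30.6) in Ube2c-led WT cells, and 70.2 (55.5 to 87.6) and 31.0 (27.8 to 34.5) in KO. The S-phase list as a whole was higher in Top2a-led cells by 0.77 on the log2 scale in WT and 0.88 in KO. Olfm4, a stem cell gene, was higher there by 1.25 and 1.33, and Axin2, a feedback gene of Wnt signalling, by 0.52 and 0.81. Ube2c-led cells had more Cdc20 (201 against 132 CPM in WT, 159 against 90.9 in KO) and more Ccnb2, cyclin B2 (203 against 138, and 181 against 88.2). The goblet markers were also higher in Ube2c-led cells, with log2 ratios of Top2a-led to Ube2c-led cells of -0.60 and -0.68. The share of Ube2c-led cells was 69.9% in KO and 23.6% in WT. In other filtered cells, too, Top2a was lower and Ube2c higher in KO. Whether the shift in share reflects other kinds of cell or the levels of these genes was not tested. Held to 1 class, the log2 ratio of KO to WT of Mki67 was -1.45 in Top2a-led and -1.77 in Ube2c-led cells, that of Ctnnb1 -0.61 and -0.69, and that of Axin2 -0.62 and -0.91. The S-phase list then had log2 ratios of 0.30 and 0.19, while over all mitotic cells it summed to 1436 CPM in WT and 1320 in KO. These classes were set after seeing the data, and their median depths were 8541 and 12258 UMIs (Top2a-led, WT and KO) and 8905 and 19672 (Ube2c-led).

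Across all 10657 measured genes the log2 ratio of KO to WT in mitotic cells had a median of -0.37, and in other filtered cells of -0.36, so a gene's ratio is read against this shift. At least 2-fold lower in KO were 18.0% of measured genes (1922), and 0.469% (50) were at least 2-fold higher. Of the 10656 genes with UMIs in both matrices 7356 were lower in KO and 3300 higher. The mitotic list had 76 genes lower and 16 higher, a median of -0.54 and 22 of 92 genes (23.9%) at least 2-fold lower, none higher. Its count stood near the 18.0% of all genes, and 53 of the 92 lay below the median of all genes. The same list had a median of -0.24 in other filtered cells. With cells chosen by Top2a and Cenpf its median in mitotic cells was -0.27.

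The spindle and cytokinesis genes had the lowest median of the mitotic groups, -0.90, and all 25 were lower in KO. At least 2-fold lower were 11 (44.0%), against 18.0% of all measured genes. Aspm, a spindle pole protein, had 90.5 CPM in WT and 26.5 in KO (-1.77, -1.94 to -1.61). The kinesins that move chromosomes and spindle microtubules were lower too: Kif4 had 89.6 and 29.9 CPM (-1.58), Kif14 29.2 and 9.80 (-1.57), and Kif11 143 and 53.2 (-1.42). Ckap5, a microtubule polymerase, had 107 and 36.1 CPM (-1.56). Among the abundant members, Prc1 had 253 and 114 CPM (-1.15, -1.23 to -1.07), Nusap1 189 and 106 (-0.83) and Hmmr 165 and 83.3 (-0.99). The median of the group ranged from -1.14, with cells chosen by Ube2c and Birc5, to -0.63, with cells chosen by Top2a and Cenpf. In other filtered cells the group had a median of -0.61, against -0.36 for all measured genes.

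Centromere, kinetochore and passenger genes had a median of -0.36, at the level of all genes, with 17 lower and 3 higher. The 4 of 20 at least 2-fold lower stood near the 18.0% of all measured genes. Hjurp, the chaperone that loads Cenpa, had 198 CPM in WT and 77.4 in KO (-1.36, -1.46 to -1.26), while Cenpa itself had 247 and 240 (-0.04, -0.11 to 0.02). Cenpe had 236 and 108 CPM (-1.13), Casc5, the kinetochore scaffold, 135 and 60.5 (-1.16), and Spag5, a spindle and kinetochore adaptor, 34.3 and 14.7 (-1.22). Cdca8, borealin, had 233 and 218 CPM (-0.10), and its partner Incenp 131 and 89.1 (-0.55). Cenpm, a part of the inner kinetochore, was the highest of the group, with 35.7 and 53.0 CPM (0.57, 0.41 to 0.72).

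The mitotic cyclins and kinases had a median of -0.55, 14 lower and 3 higher. The 3 of 17 (17.6%) at least 2-fold lower stood near the 18.0% of all measured genes. Mastl, the Greatwall kinase, had 25.8 and 9.59 CPM (-1.43), Nek2, a centrosome kinase, 58.6 and 26.1 (-1.17), and the checkpoint kinase Bub1 41.5 and 20.6 (-1.01). Plk1 had 114 and 78.0 (-0.55) and Aurkb, the kinase of the passenger complex, 77.8 and 66.7 (-0.22). Aurka, the spindle pole kinase, had 76.4 and 73.0 (-0.07, -0.19 to 0.05) and cyclin B2 163 and 171 (0.07, -0.01 to 0.15), both with intervals that hold 0. The small Cdk1 subunits Cks1b (106 and 125, 0.23) and Cks2 (261 and 323, 0.31) were higher in KO.

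Anaphase promoting complex and checkpoint genes had the highest median of the mitotic groups, -0.13 (0.029 with cells chosen by Top2a and Cenpf). In KO 8 were lower and 5 higher, 1 of 13 (7.69%) at least 2-fold lower, against 18.0% of all measured genes. The core subunit Anapc11, which carries the RING finger, had 65.2 CPM in WT and 106 in KO (0.70, 0.59 to 0.81), and Pttg1, the securin that holds back separase, 41.7 and 57.3 (0.46). Ube2s, which extends the ubiquitin chains that Ube2c begins, had 437 and 558 CPM (0.35, 0.31 to 0.40). Cdc20 had 159 and 146 (-0.12, -0.20 to -0.04), and Cdc27, a scaffold subunit, 27.5 and 12.4 (-1.15). In other filtered cells Ube2s had a log2 ratio of 0.63.

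Among condensins and chromatin proteins Mki67 stood apart. It had 773 CPM in WT and 199 in KO mitotic cells (-1.96, -2.02 to -1.90), and in other filtered cells its log2 ratio was -1.47. Ki-67 coats mitotic chromosomes and is widely used to mark dividing cells. Over the alternative rules the log2 ratio in mitotic cells lay between -2.12 and -1.33. After thinning, 64.2% of WT mitotic cells (62.0 to 66.4) but 26.7% of KO mitotic cells (23.6 to 29.9) had a Mki67 UMI. The condensin genes Ncapg2 (23.5 and 8.69 CPM, -1.43) and Ncapd2 (56.1 and 24.1, -1.22) were lower, and Smc4 less so (288 and 201, -0.52). The abundant chromatin genes differed little or were higher: Hmgb1 had 1288 and 1326 CPM (0.04), Hmgb2 1436 and 1325 (-0.12), H2afz 1666 and 2255 (0.44) and H2afx 265 and 356 (0.42). The group as a whole had a median of -0.47, 12 lower and 5 higher. At least 2-fold lower were 3 of 17 (17.6%), near the 18.0% of all measured genes. Tubulins and stathmin had a median of 0.15 with 3 lower and 7 higher, among them Tubb4b (1054 and 1246 CPM, 0.24) and Stmn1 (684 and 914, 0.42), while Tubb5 had 521 and 484 (-0.11).

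**Figure D3:**
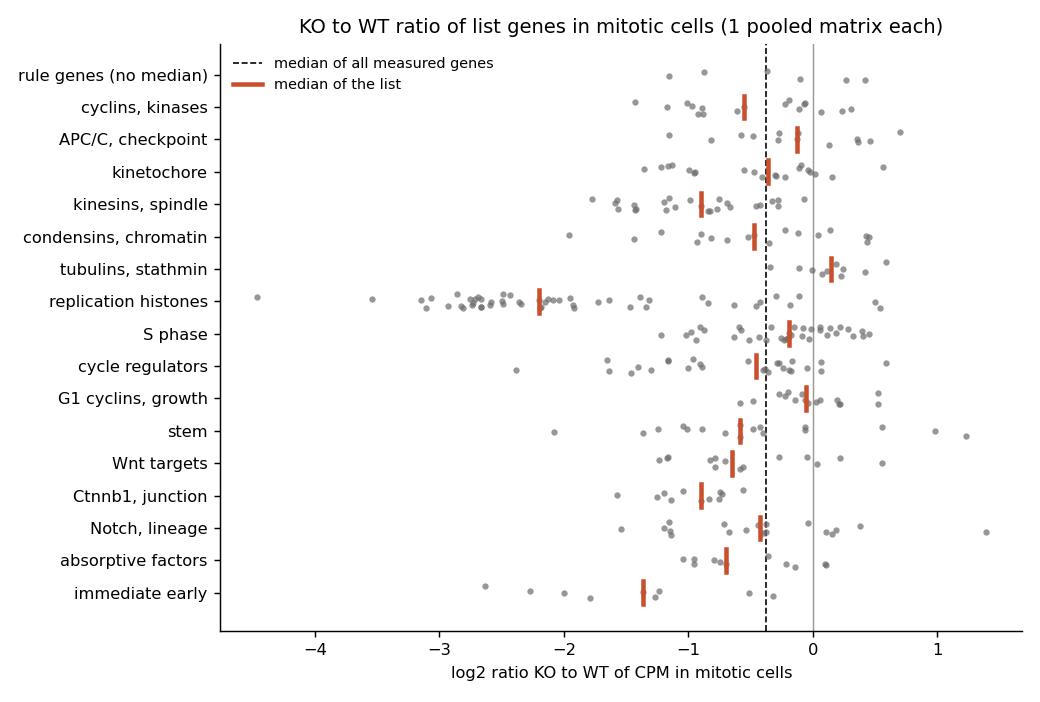
Log2 ratio of KO to WT in mitotic cells for each measured gene (points) of the gene groups (rows), with the median of each group and a line at the median of all measured genes (-0.37). Of the groups drawn, histone genes (-2.20) and immediate early genes (-1.37) have the lowest medians, spindle genes have -0.90, and tubulins (0.15) lie above 0.

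The ratios followed the length of the genes, a property no list used. With measured genes sorted by the summed length of their exons in GENCODE M21 into 4 equal classes, the median log2 ratio of KO to WT in mitotic cells was 0.22 in the shortest (183 to 2739 bases), then -0.24, -0.56 and -0.89 in the longest (6840 to 123179 bases). Other filtered cells had 0.22, -0.22, -0.54 and -0.84. Genes of the mitotic list had 0.04, -0.51, -0.50 and -1.14, and 0 of 18, 2 of 26, 7 of 24 and 13 of 24 were at least 2-fold lower, against 4.44%, 8.46%, 19.2% and 39.9% of all genes of the class. Top2a (9013 bases), Cenpf (15433) and Mki67 (10061), Cenpe (8620) and Prc1 (8225) are in the longest class, and Ube2c (2600) is in the shortest. The part of length, depth and library in any single gene's ratio was not tested.

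**Figure D4:**
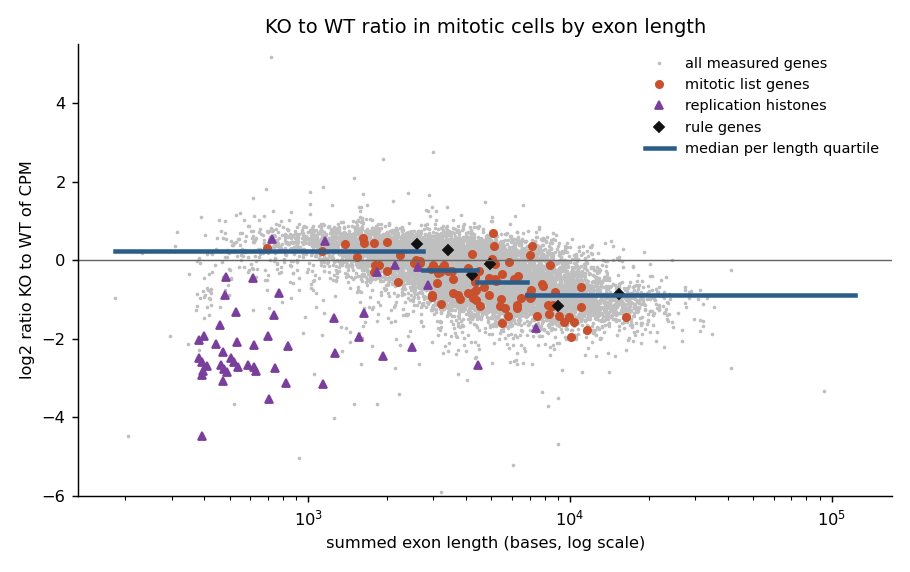
Log2 ratio of KO to WT in mitotic cells against exon length (log axis, bases) for all measured genes (grey), the mitotic list, the replication histones and the selecting genes, with the median of each length class. The class medians run from 0.22 in the shortest to -0.89 in the longest, and the short histone genes lie far below their class.

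Replication genes lay closer to 0. Of the 35 S-phase genes 24 were lower and 11 higher, with a median of -0.19 (0.046 with cells chosen by Ube2c and Birc5). At least 2-fold lower, against 18.0% of all measured genes, were 2 (5.71%). These were Mcm10, a loader of the replication machine (42.1 and 18.1 CPM, -1.22), and Dnmt1, which copies DNA methylation (63.4 and 31.3, -1.02). Pcna had 47.5 and 37.7 (-0.33), Tyms, thymidylate synthase, 100.2 and 125 (0.32) and Dut, which removes dUTP, 91.1 and 120.3 (0.40). Among 26 transcription factors and inhibitors of the cycle the median was -0.46, with 23 lower and 3 higher. At least 2-fold lower were 8 (30.8%), against 18.0% of all measured genes. Foxm1, the activator of late cycle genes, had 29.6 and 13.3 CPM (-1.16, -1.41 to -0.92), and Lin37, a subunit of the MuvB core, 19.8 and 29.7 (0.59). The pocket protein genes were all lower, Rb1 with 25.9 and 9.45 CPM (-1.46), Rbl1 with 29.2 and 9.38 (-1.64) and Rbl2 with 17.0 and 5.42 (-1.65). Cdkn1b, the inhibitor p27, had 69.8 and 28.4 (-1.30), and Cdkn1a, the inhibitor p21, 38.7 and 37.5 (-0.05, -0.21 to 0.12). G1 cyclin, Myc and growth genes had a median of -0.05, 9 lower and 7 higher, with Ccnd1 at 238 and 197 (-0.27), Cdk4 at 162 and 233 (0.53) and Myc at 16.1 and 18.8 (0.22, -0.02 to 0.47).

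Histone genes of the replication-dependent clusters had the lowest ratios of any list. Their messenger RNAs end in a stem-loop in place of a poly(A) tail, and the libraries were made from poly(A) RNA. Together they gave 3135 CPM in WT and 951 in KO mitotic cells, and 934 and 600 in other filtered cells. Of 51 measured genes 49 were lower and 41 (80.4%) at least 2-fold lower in KO, against 18.0% of all measured genes. Their median was -2.20, and -1.59 in other filtered cells. Hist1h1b, a linker histone (chr13:21779883-21780625), had 363 CPM in WT and 54.3 in KO (-2.74, -2.85 to -2.63), and Hist1h3c had 193 and 27.2 (-2.83). Hist1h2ap stayed closer, with 485 and 262 CPM (-0.89), and Hist1h4i (30.7 and 44.8, 0.54) and Hist1h2bc (109 and 155, 0.50) were higher in KO. Members of these families are nearly identical in sequence, so the split of UMIs among them is uncertain. Held to 1 leading gene, the log2 ratio of the sum was -1.52 in Top2a-led and -1.28 in Ube2c-led cells.

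A fixed rule named the most extreme genes: 1128 measured genes had at least 200 UMIs and were at least 1.5-fold higher in mitotic than in other filtered cells of the matrix in which they were higher. The filter read only that matrix, so it favours genes enriched there: Sst, Ube2e2, Sgf29, Kcnq1ot1 and Hist1h2be did not reach it in the other matrix. The 12 lowest were 11 histone genes and Kcnq1ot1, an imprinted nuclear RNA (38.1 and 3.82 CPM, -3.32, -3.74 to -2.92). Hist1h2an was the lowest (30.7 and 1.39 CPM, -4.47). The 12 highest were led by the hormone gene Sst (1.94 and 70.2 CPM, 5.18), but 989 of its 1010 KO UMIs lay in 1 cell, and the other 21 UMIs in 16 cells. After it came Hspa1b, a heat shock chaperone (4.87 and 11.9 CPM, 1.29), Alyref, an mRNA export factor (78.8 and 174, 1.14, 1.05 to 1.24), and Rpa3, a subunit of the single-strand DNA binder RPA (37.9 and 71.9, 0.92). Then followed 0610010K14Rik, Eef1e1, Rbp7, Mgmt, Ube2e2, Kcne3, Rpp30 and Sgf29, with log2 ratios from 0.92 to 0.73. Hspa1b turned to -0.14 with cells chosen by Top2a and Cenpf. In other filtered cells Alyref and Rpa3 had log2 ratios of 1.33 and 1.08.

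Ctnnb1, the gene next to the deleted enhancer (chr9:120929216-120960507, plus strand), was lower in KO. It had 216 CPM in WT and 129 in KO mitotic cells (-0.74, -0.83 to -0.66), and the log2 ratio in other filtered cells was -0.73. After thinning, 25.5% of WT (23.5 to 27.5) and 16.2% of KO mitotic cells (13.6 to 18.9) had a Ctnnb1 UMI, and 26.8% and 17.4% of all filtered cells did. Its level did not set mitotic cells apart, with log2 ratios of mitotic to other cells of 0.00 and -0.01. All 11 genes of its complexes, Ctnnb1 among them, were lower, 5 (45.5%) at least 2-fold, with a median of -0.90. Over all measured genes 18.0% were at least 2-fold lower. The median exon length of the 11 was 7319 bases, within the longest length class. There 39.9% of all genes were at least 2-fold lower, with a median of -0.89. Cdh1, E-cadherin, had 231 and 101 CPM (-1.19), Ctnna1, α-catenin, 183 and 83.5 (-1.14) and Apc, the scaffold of the β-catenin destruction complex, 65.2 and 21.9 (-1.57). Exon length of these genes and of Ctnnb1 (5192 bases) was in the range where most genes were lower, and the part of the enhancer in the Ctnnb1 ratio cannot be told apart from that of the library.

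Wnt target and feedback genes had a median of -0.65, against -0.37 for all genes. In all, 11 were lower and 3 higher, and 3 of 14 were at least 2-fold lower, near the 18.0% of all measured genes. Axin2 had 74.9 CPM in WT and 31.9 in KO (-1.23, -1.39 to -1.08), and -0.88 in other filtered cells. Rnf43, which removes Wnt receptors, had 29.2 and 13.0 (-1.17), and Ephb2, a sorting receptor of the crypt, 57.3 and 25.4 (-1.17). Sox9 had 58.1 and 56.2 (-0.05, -0.18 to 0.09), and Ascl2, a Wnt-driven stem cell factor, was higher with 24.4 and 36.0 (0.56, 0.37 to 0.75). Stem cell genes had a median of -0.58, 14 lower and 3 higher. Olfm4 had 151 CPM in WT and 35.6 in KO (-2.08), Slc12a2 412 and 174 (-1.25) and Lgr5 17.7 and 10.8 (-0.70). Gkn3 (16.4 and 38.5, 1.23) and Hopx (64.7 and 128, 0.98) were higher. With cells chosen by Top2a and Cenpf alone the medians were 0.22 for the Wnt list and 0.038 for the stem list, so their direction depended on the rule, and Axin2 then had -0.50.

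Some mitotic cells carried stem cell markers. Cells that passed the stem cell rule numbered 414 in WT, of which 182 (44.0%, 39.1 to 48.9) were also mitotic, and 76 in KO, of which 8 were (10.5%, 4.66 to 19.7). They made up 9.57% of WT and 1.03% of KO mitotic cells, so that the label transit-amplifying takes in some dividing cells with stem cell markers. The stem cell rule counts Slc12a2 and Axin2, both lower in KO mitotic cells, and Ascl2, which was higher. These shares thus depend on the markers chosen. After thinning, at least 3 UMIs of the 17 stem cell genes were seen in 39.3% of WT (37.1 to 41.5) and 23.3% of KO mitotic cells (20.4 to 26.5), in 50.9% and 32.3% of the replicating cells, in 19.1% and 15.3% of other filtered cells and in 0.699% and 0.570% of enterocytes. Unthinned, 88.7% and 92.7% of mitotic cells passed that count. Enterocytes themselves met the mitotic rule in 2 of 572 and 5 of 877 cells, and tuft cells in 10 of 85 and 2 of 39.

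Lineage genes differed among the mitotic cells. Goblet markers (Muc2, Fcgbp, Tff3, Zg16, Clca1, Agr2 and Spink4) made up a median of 0.325% of UMIs in WT and 0.186% in KO mitotic cells, but 9.77% and 7.18% at the 95th percentile. At least 4% came from them in 340 WT cells (17.9%, 16.2 to 19.7) and 101 KO cells (12.9%, 10.7 to 15.5), against 27.4% and 16.0% of other filtered cells. The limit cuts a range, with 115 and 52 cells within 1 percentage point of it, and at 2% the shares were 24.1% and 21.7%, at 8% 8.10% and 3.59%. These goblet-rich cells had a median depth of 7996 UMIs in WT and 20698 in KO, against 8568 and 17739.5 for the 1355 and 576 cells under 1%, a ratio of depth that ran opposite ways in the matrices.

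Genes outside the goblet markers went with them. The ratios carry 10 CPM on both sides and compare goblet-rich cells with those under 1%. Guca2a, guanylin, had log2 ratios of 5.14 in WT and 5.24 in KO, and the chemokine gene Ccl9 4.77 and 4.15. Of the secretory factors, Atoh1, which commits progenitors to the secretory fate, had 114 against 6.25 CPM in WT and 84.4 against 3.96 in KO (2.93 and 2.76). Spdef (3.36 and 2.63), Creb3l1 (3.56 and 2.46), Klf4 (3.43 and 2.06) and Foxa3 (2.43 and 2.02) were higher as well. Dll1, a Notch ligand, had 1.98 in WT and 0.70 in KO. Notch1 (-1.25 and -0.95) and its target Hes1 (-1.03 and -0.44) were lower in goblet-rich cells, and so were Olfm4 (-2.81 and -1.36), Ascl2 (-1.56 and -1.57) and Lgr5 (-1.502 and -1.074). Mki67 had 0.05 and -0.16 and Cdc20 0.00 and -0.26. Both classes had to pass the mitotic rule, which bears on the levels of such genes. Of the cycle inhibitors, Cdkn1a (0.85 and 0.74) and Cdkn2d (0.66 and 0.60) were higher, while Cdkn1b had 0.05 and -0.16 and Cdkn2c -0.06 and -0.05. All 7 measured Paneth markers were also higher in goblet-rich cells of both matrices, from Lyz1 (0.38 and 0.30) to Mmp7 (2.15 and 2.35), and their part in the result was not tested. Droplets with 1 dividing and 1 goblet cell would also carry both sets of genes, and their number was not tested.

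**Figure D5:**
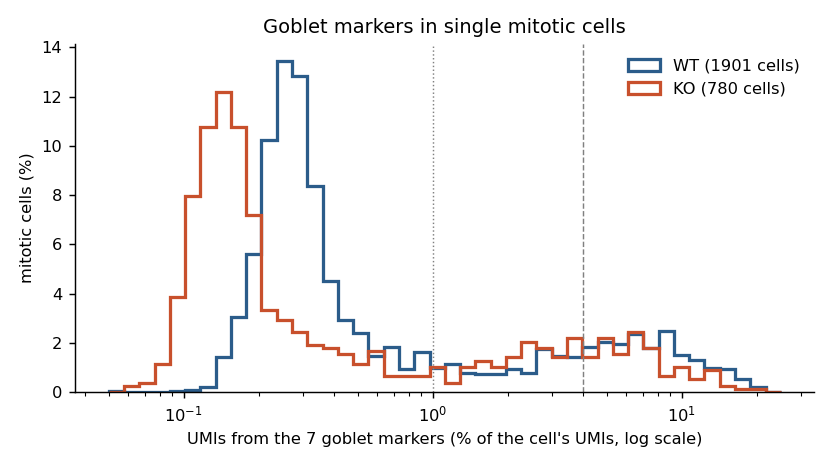
Percent of mitotic cells (y axis) by the percent of their UMIs from the 7 goblet markers (x axis, log scale) in WT and KO, with lines at 1% and 4%. Most cells lie under 1% (1355 of 1901 in WT, 576 of 780 in KO), and 340 and 101 cells lie at 4% or above.

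Between the matrices the Notch and lineage genes had a median of -0.42, against -0.37 for all measured genes. In KO mitotic cells 13 of 18 were lower, 5 (27.8%) at least 2-fold, against 18.0% of all measured genes. Dll1 had 19.5 and 8.76 CPM (-1.16), Klf4 87.6 and 39.6 (-1.14) and Atoh1 31.2 and 24.1 (-0.37, -0.57 to -0.17). Neurog3, the factor that starts the enteroendocrine fate, had 37 UMIs in 12 WT cells and 82 UMIs in 17 KO cells (1.39, 0.82 to 1.99). Of these UMIs 70.3% in WT and 59.8% in KO lay in 5 cells, a spread that the interval does not cover. Factors of the absorptive lineage had a median of -0.70, 9 lower and 2 higher, among them Hnf4a with 213 and 110 CPM (-0.95) and Cdx2, the intestinal homeobox factor, with 144 and 155 (0.11). Enterocyte markers had a median of 0.67. Reg3b, an antimicrobial lectin, had 1339 CPM in WT and 4859 in KO mitotic cells (1.86), and a log2 ratio of 1.85 in other filtered cells. After thinning, at least 3 UMIs of enterocyte markers were found in 47.6% of WT and 76.9% of KO mitotic cells. The share was also higher in KO in other filtered cells (69.7% and 85.6%) and in the replicating cells (38.1% and 68.8%). The part of free RNA in these shares was not tested. Hormone genes rested on few cells: 1 KO cell gave 49.9% of the Gip UMIs and 1 WT cell 45.5% of the Gcg UMIs.

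Immediate early genes and nuclear RNAs were lower in KO, as they were in other filtered cells. All 9 immediate early genes were lower, 7 (77.8%) at least 2-fold, against 18.0% of all measured genes, with a median of -1.37. Fosb had 76.7 and 12.4 CPM (-2.63), Egr1 100.1 and 20.8 (-2.27) and Jun 268 and 77.6 (-1.79), and in other filtered cells -3.05, -2.42 and -1.95. Ribosomal protein genes lay the other way, with 65 of 81 higher and a median of 0.26, and of 0.34 in other filtered cells. Of all genes with UMIs in both matrices, 3300 of 10656 were higher in KO. The median exon length of the ribosomal genes was 1781 bases, within the shortest length class, where the median of all genes was 0.22. Mitochondrially encoded genes had a median of -0.51, and their share of UMIs had a median of 6.80% per WT and 6.03% per KO mitotic cell.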

How the data were processed

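Single-cell RNA-seq was made from EpCAM+ DAPI- crypt cells with a 3′ droplet kit. The authors deposited UMI counts per gene and barcode as 1 matrix per genotype, made with Cell Ranger (2.1.1 in the submitters' processing notes, 4.0.0 in the matrix headers) on build mm10. The barcodes do not tell the 4 labelled samples of a group apart, so each matrix was 1 sample, no test between groups was made, and replicates could not be left out. The study used DoubletFinder. Whether it had been applied to the deposited matrices is not given in the sources used here, and no doublet caller was run.

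Cells were filtered and chosen as the report states, in Python 3.11.15 (numpy 2.4.6, scipy 1.17.1, pandas 2.3.3). The members and gene lists were chosen with earlier results of these data known. UMIs of each gene were summed over the cells of a class and divided by all their UMIs (CPM), with exact Poisson intervals. Log2 ratios of KO to WT have exact conditional binomial intervals, and shares have exact Clopper-Pearson intervals. These steps were tested on simulated data. Measured genes had at least 50 UMIs in the mitotic cells of both matrices together. Thinning drew 1500 UMIs per cell at random (seed 7). Depth was a median of 8488 UMIs per WT and 18513.5 per KO mitotic cell, and the rarest gene named, Neurog3, rested on 37 and 82 UMIs.

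Enterocytes had at least 2% of UMIs from Apoa1, Apoa4, Fabp2, Alpi and Sis, and stem and tuft cells at least 0.15% from 6 markers each. Replicating cells had 0.2% from the S-phase list. Of 27998 gene IDs 27645 were found in GENCODE M21, whose exons gave the lengths. Named genes were list members with a role described, the 12 highest and 12 lowest KO to WT ratios among measured genes with 200 UMIs and 1.5-fold more CPM in mitotic than other cells, and the 20 highest against other cells among genes found in 10% of mitotic cells. The mt- and Defa genes and the 6 selecting genes were left out of these rankings. The alternatives were other limits on the rule, cell filters, count minimum and weights, and 2 rules of 2 genes each chosen after the data were seen.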

Additional observations from a re-analysis of the deposited data

How the results depend on the processing

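No paired analysis was possible because each group has 1 matrix whose barcodes do not tell the labelled samples apart, and single replicates could not be left out. The log2 ratio of KO to WT of the mitotic share was -0.47 at a limit of 0.10% and -2.11 at 0.30%. It was -0.90 without lineage-marked mitotic cells, -3.01 with Top2a and Cenpf as the rule and -0.031 with Ube2c and Birc5. Lineage-marked cells had over 1% of UMIs from goblet, enteroendocrine, tuft or enterocyte markers, or over 3% from Paneth markers. Leaving them out kept 1091 WT and 417 KO mitotic cells, while other filtered cells stayed whatever their markers. With Top2a and Cenpf, Mki67 had -1.33, Axin2 -0.50, Ctnnb1 -0.53, Hspa1b -0.14, Lrig1 0.026 and Sst -0.38. List medians under that rule were -0.27 for the mitotic list, -0.63 for spindle, -0.15 for kinetochore, -0.40 for cyclins and kinases, -0.18 for chromosome, 0.029 for anaphase promoting complex, 0.038 for stem cell and 0.22 for Wnt genes. With Ube2c and Birc5 as the rule, Mki67 had -2.12, Sst -0.47, the spindle list -1.14, the cyclins and kinases -0.72 and the S-phase list 0.046. At 0.30%, Mki67 had -1.79, Axin2 -0.87, Ctnnb1 -0.62, Gip -1.22, Sst -1.54, the mitotic list -0.39 and the chromosome list -0.39. At 0.10% Gcg had 0.23, and without lineage-marked mitotic cells Tph1 had -0.20. With cells thinned before the rule, Mki67 had -2.03, and the lists -1.10 (spindle), -0.72 (cyclins and kinases), -0.59 (chromosome), -0.30 (anaphase promoting complex) and -0.39 (Wnt). As a mean of CPM per cell Mki67 had -1.88. Against other cells, the mitotic genes had medians of 1.79 in WT at 0.10%, and of 1.89 in WT and 1.54 in KO at 0.30%. The goblet-rich share was 24.1% in WT and 21.7% in KO at a limit of 2%, and 8.10% and 3.59% at 8%. Genes at least 2-fold higher in KO numbered 379 with a minimum of 1 UMI in each matrix and 19 with 200 UMIs, against 50, and those at least 2-fold lower 2858 and 1380, against 1922. The causes were not tested. Over 13 planned and 2 added settings, 3946 of 4848 values of single genes and 298 of 373 list medians lay within the counting interval of the reported value (for a list, the median interval of its genes). In 93 of 374 genes and 8 of 25 lists the sign differed under at least 1 setting (63 genes and 2 lists under planned ones). Depth limits the rare genes: Neurog3, Sst and Gcg rested on few cells.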
